A study of Homo sapiens with 48 samples.

Results

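LSM1 to LSM8 are small RNA-binding proteins that assemble into rings. LSM2, LSM3, LSM4, LSM5, LSM6 and LSM7 are shared by both rings: with LSM1 they form the cytoplasmic ring, which binds the shortened tail of a deadenylated mRNA and, with PATL1, promotes its decapping, and with LSM8 they form the nuclear ring, which holds the U-rich end of U6 snRNA and serves splicing. The CCR4-NOT complex acts just before the cytoplasmic ring, since it removes the poly(A) tail. CNOT1 is its scaffold; CNOT4, a RING-type ubiquitin ligase, is attached less firmly in human cells. The 8 genes were taken by their GENCODE 29 symbols from the 58721 genes of the deposited tables, and all 8 passed the filters on low values.

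The cells were DLD-1, a human colorectal cancer line. All cells carried TIR1, a plant F-box protein that, once auxin is present, marks any protein fused to an auxin-inducible degron (AID) for destruction. CNOT1-AID and CNOT4-AID cells carried the degron on CNOT1 or CNOT4, and parental cells had no tagged protein; whether a tagged line is 1 clone is not given in the sources used here. For steady-state RNA each line was kept with 1 mM auxin or untreated for 8 h or 24 h, which gave 24 libraries in 12 groups of 2. For decay, each line, parental cells included, had 2 h of 1 mM auxin and then 0, 3, 6 or 12 h with triptolide at 1 µM, a drug that stops transcription initiation, again in 24 libraries and 12 groups of 2. The labels do not say whether the 2 libraries of a group came from separate cultures, so the p-values describe library-to-library spread, perhaps only technical. In bulk RNA, fewer cells that hold a transcript and less of it per cell cannot be told apart.

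Of 11 colon epithelium markers, 10 averaged at least 1 TPM (transcript share of a library, corrected for gene length) over the 24 steady-state libraries, and VIL1 averaged 0.966 TPM. Of the markers of other cell types, 1 of 4 for blood, 0 of 5 for fibroblasts, 0 of 4 for endothelium and 2 of 4 for neurons averaged 1 TPM or more. These sums moved with CNOT1 depletion: colon markers summed to 2798 to 3300 TPM in CNOT1-AID cells with auxin, against 4034 to 4214 TPM untreated, and fibroblast markers to 0.67 to 4.79 TPM with auxin, against 0.15 to 0.34 TPM untreated. Blood markers summed to 2.26 to 3.81 TPM in CNOT1-AID cells with auxin, against 0.42 to 0.61 TPM untreated, and neural markers to 125.7 to 133.9 TPM with auxin, against 59.1 to 70.8 TPM untreated; endothelium markers stayed between 0.17 and 0.55 TPM in all 24 libraries. COL1A2 and KDR were at 0 in all 24 libraries, and PTPRC, CD3E and LUM never exceeded 0.05 TPM. Other members of these lists were present: TUBB3 had 43.4 to 132 TPM and MAP2 1.24 to 5.38 TPM. CD14 reached 3.81 TPM, COL1A1 2.31 TPM and DCN 1.78 TPM. The part of these markers in the results was not tested. Auxin acts on the protein, so the CNOT1 and CNOT4 mRNAs do not check the depletion. CNOT1 mRNA was 39.9 to 48.3 TPM in CNOT1-AID cells with auxin, against 49.0 to 68.4 TPM untreated. In untreated parental cells it was 83.8 to 95.2 TPM, so the tagged line was lower before auxin. CNOT4 mRNA was 32.5 to 44.4 TPM in CNOT1-AID cells with auxin, against 6.9 to 9.51 TPM untreated. Triptolide libraries held 18216427 to 26723618 counts. Of the triptolide pairs, parental at 0 h had the lowest agreement (r = 0.978 across genes, with 0.991 to 0.997 in the other 11 pairs), and the CNOT4-AID libraries at 12 h held 2.25% and 3.92% of their counts in ERCC spike-in RNA, against 0.941% to 2.11% in the other 22. Among steady-state pairs the share of TPM in protein-coding genes differed most in CNOT4-AID with auxin for 8 h, at 30.6% and 39.5%.

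Among the sequences that bear on turnover are the 3′ UTRs, where factors that recruit CCR4-NOT bind. Coding sequences were not examined. In the principal GENCODE 29 transcripts the 3′ UTR was longest in LSM3 (3003 bases) and shortest in LSM7 (163 bases); LSM1, LSM2, LSM4, LSM5, LSM6 and LSM8 had 349, 361, 1234, 1929, 1879 and 822 bases, against a median of 871 over 18946 genes. LSM8 had the lowest GC content of the 8 (29.7%, with a median of 42.7% over genes), and LSM4 and LSM7 the highest (56.2% and 55.8%). The core of AU-rich elements, ATTTA, read on the transcript strand, was found in 6 of the 8 (LSM1, LSM2, LSM3, LSM5, LSM6 and LSM8) and in 64.3% of all 3′ UTRs. LSM5 held 6 of these sites, LSM3 and LSM6 4 each, LSM8 2, LSM1 and LSM2 1 each, and LSM4 and LSM7 none. The longer TTATTTATT, which contains ATTTA and occurs in 7.51% of 3′ UTRs, was in none of the 8, and the Pumilio-type TGTANATA, which occurs in 23.4%, was in LSM1 and LSM5. A match describes the letters only.

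The ATTTA windows of LSM8 and LSM2, the members with the steepest loss under triptolide in parental and CNOT4-AID cells, and the TGTANATA window of LSM5 are shown from the GENCODE 29 transcripts on GRCh38, with the matched letters in capitals. LSM3, LSM5 and LSM6 hold more ATTTA sites and had no called loss in parental cells, though LSM3 and LSM6 were called in CNOT4-AID cells. Whether the sites bear on the loss was not tested. The LSM8 windows lie at chr7:118192276-118192303 and chr7:118192428-118192455 on the plus strand, the LSM2 window at chr6:31797396-31797420 on the minus strand, where it follows an aataaa hexamer and runs to the annotated end, and the LSM5 window at chr7:32486239-32486266 on the minus strand.
LSM8, first site: gatactttagtATTTAtggaaactagtg
LSM8, second site: gaatcattggcATTTAtccgattccact
LSM2: tcgggaataaaATTTAtgatgcaaa
LSM5: aacattaataTGTACATAgtattaaatg

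Promoters are shown for LSM4, the member with the largest fall after CNOT1 depletion, and LSM8, whose level had no called change there in the main fit. Scaled to the ERCC spike-in, LSM8 was called higher at 8 h (log2 0.61). RefSeq windows on GRCh38.p14, from 250 bases before to 50 after the start, were matched for 6 of the 8 members. Capitals mark CCAAT (in 34.6% of 35116 promoter windows), GGGCGG (45%) and CCGGAA (17.2%) on either strand; overlapping matches run together. The LSM4 window, chr19:18323027-18323326 on the minus strand, held 4 GGGCGG matches and 1 CCAAT match, all before the start. The LSM8 window, chr7:118183914-118184213 on the plus strand, held 3 CCGGAA matches, of which 2 overlap, and 1 CCAAT match.
LSM4: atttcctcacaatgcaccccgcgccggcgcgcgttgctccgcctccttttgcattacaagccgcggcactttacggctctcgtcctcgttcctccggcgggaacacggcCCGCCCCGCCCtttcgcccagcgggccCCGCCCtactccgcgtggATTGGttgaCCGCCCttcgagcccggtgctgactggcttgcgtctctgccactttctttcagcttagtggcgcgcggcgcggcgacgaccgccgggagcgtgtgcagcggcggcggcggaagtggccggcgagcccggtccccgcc
LSM8: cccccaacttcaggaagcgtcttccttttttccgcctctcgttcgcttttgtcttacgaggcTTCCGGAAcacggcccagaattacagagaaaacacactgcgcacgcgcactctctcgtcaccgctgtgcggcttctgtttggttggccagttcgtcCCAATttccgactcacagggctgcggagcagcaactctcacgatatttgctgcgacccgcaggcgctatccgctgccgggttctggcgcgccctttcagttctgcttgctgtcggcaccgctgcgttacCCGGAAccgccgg
GGGCGG was also present in the windows of LSM2, LSM3, LSM5 and LSM7, CCGGAA in those of LSM3 and LSM5, and CCAAT in LSM5. Longer matches were found in single members: CTCGCGAGA in LSM3 (0.686% of promoters), and the palindrome bound by NRF1 (1.24%) and GATGGCG (4.2%) in LSM7. TATAAA, present in 11.5% of promoters, was in none of the 6.

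The genes lie apart except for pairs on 2 chromosomes. On GRCh38, LSM1 lies at chr8:38163321-38176730, LSM2 at chr6:31797396-31806984, LSM3 at chr3:14178358-14201119 and LSM6 at chr4:146175685-146200000. LSM4 (chr19:18306230-18323274) and LSM7 (chr19:2321517-2328620) share a chromosome, as do LSM5 (chr7:32485332-32495283) and LSM8 (chr7:118184032-118192824). Processed copies of LSM1, LSM3 and LSM6 reached at most 0.69 TPM in any library. BAG4, XPC and SPPL2B overlap LSM1, LSM3 and LSM7 on the other strand; the kit marks strand, and whether the counting used it is not given in the sources used here.

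The level of the 8 mRNAs in TPM, which correct for gene length, was far from equal. Raw counts, which exist for the triptolide libraries only, order them otherwise. In parental cells at 0 h LSM3 had 882 and 1506 counts, LSM7 846 and 432, and LSM2 535 and 760. The order below is that of steady-state TPM. In the 10 groups other than CNOT1-AID with auxin, LSM4 stood first, then LSM7, LSM2, LSM5 and LSM1, with LSM8, LSM3 and LSM6 below them. LSM4 was above LSM7, and LSM7 above LSM2, in both libraries of all 10 of these groups. LSM2 and LSM5 overlapped in CNOT4-AID cells with auxin at 8 h, LSM1 and LSM8 in untreated parental cells at 24 h, and LSM8 and LSM3 in 4 groups at 8 h: CNOT4-AID with auxin, and untreated CNOT1-AID, CNOT4-AID and parental. In untreated CNOT4-AID cells at 24 h LSM8 had the lowest mean of the 8, and its libraries overlapped those of LSM6. In untreated parental cells at 24 h, LSM4 had 114 and 120 TPM and LSM6 had 11.2 and 13.0 TPM. After CNOT1 depletion the order changed: at 24 h of auxin LSM2 was first, LSM7 and LSM4 followed and overlapped each other, LSM8 was above LSM1, and LSM3 was last; at 8 h LSM7 was first and LSM4 and LSM2 overlapped. The plot of TPM by library shows these levels for every library.

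**Figure D1:**
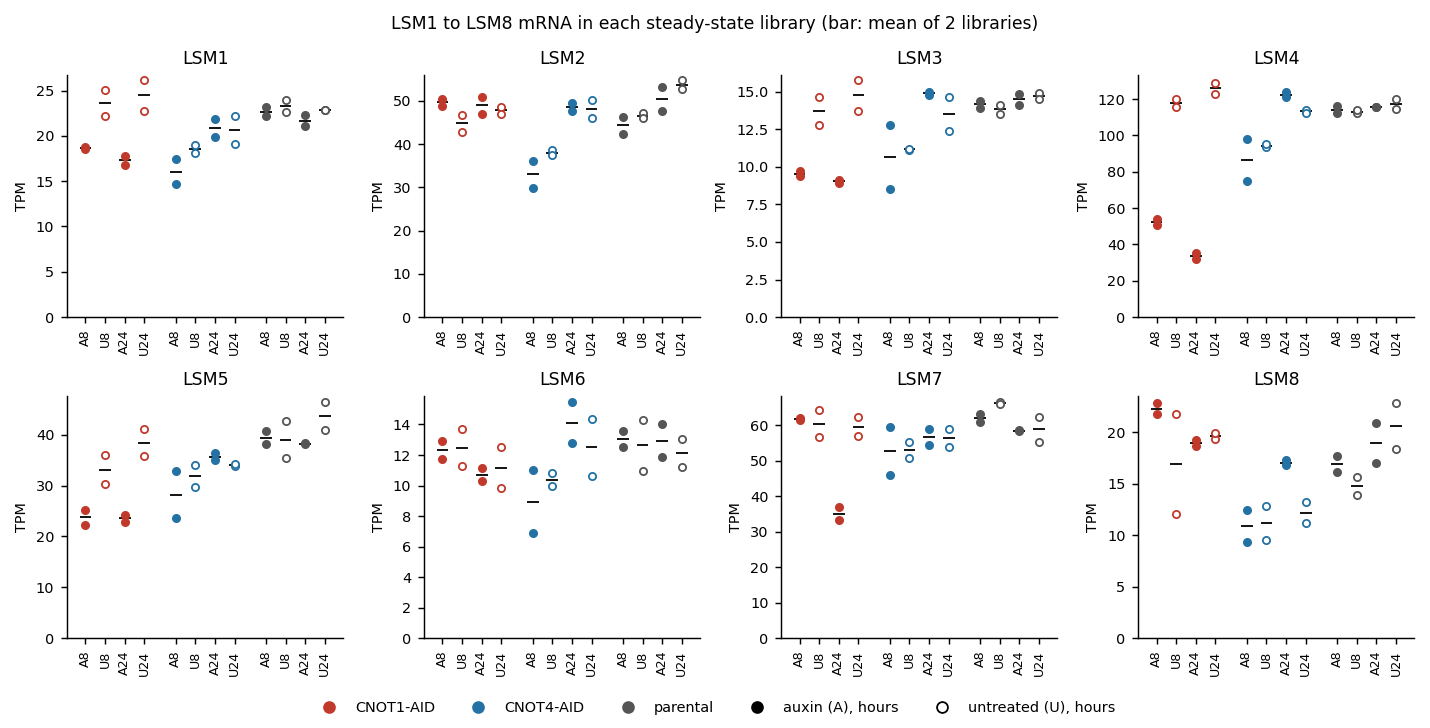
TPM of the 8 LSM genes in each of the 24 steady-state libraries, with 1 panel per gene; points are libraries, filled for auxin (A) and open for untreated (U) at 8 or 24 h, bars are means of 2 libraries, and each axis starts at 0. LSM4 in CNOT1-AID cells sits at 31.9 to 54.1 TPM with auxin, against 116 to 129 TPM untreated; LSM6 TPM overlaps between treatments in every line and at both times.

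Depletion of CNOT1 lowered most of the shared subunits and LSM1. LSM6 and LSM8 had no called change in the main fit, which took all 24 libraries with TMM scaling. At 8 h of auxin 5 of the 8 mRNAs fell in CNOT1-AID cells (LSM1, LSM3, LSM4, LSM5 and LSM7) and none rose; 62.8% of the 14921 genes tested were called in this comparison, 29.8% of them lower and 33.1% higher as shares of all genes. At 24 h 6 fell, LSM2 being added, and none rose, where 71.5% of all genes were called, 34.8% lower and 36.7% higher. Set against auxin alone in parental cells, the falls of LSM7 at 8 h and LSM2 at 24 h were not called. The median log2 change of the 8 was -0.46 at 8 h and -0.83 at 24 h, beside 0.00 and -0.01 for all genes tested. All calls are at an adjusted p under 0.05 in limma with Benjamini-Hochberg adjustment, and changes are on the scale of log2(TPM + 0.5) after TMM scaling, which centres the genes near no change; the added 0.5 understates changes of low genes.

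LSM4 fell most. It had 50.5 and 54.1 TPM in CNOT1-AID cells after 8 h of auxin, against 120.0 and 116 TPM untreated, and 35.2 and 31.9 TPM after 24 h, against 129 and 123 TPM untreated. The groups are far apart at both times. The log2 change was -1.46 (SE 0.065) at 8 h, a 2.75-fold lower level with a 95% interval of 2.502 to 3.027, and -2.15 (SE 0.065) at 24 h, 4.43-fold lower with an interval of 4.03 to 4.88 (limma adjusted p = 9.7e-12 and 4.4e-14). Only 1.64% of all genes had a more negative change at 8 h, and 1.13% at 24 h. LSM4 carries a C-terminal tail rich in arginine and glycine.

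LSM3, LSM5 and LSM1 fell by less, and their changes at 8 h and 24 h had no called difference. LSM3 had 9.38 and 9.73 TPM after 8 h of auxin, against 12.8 and 14.7 TPM untreated, and 8.94 and 9.16 TPM after 24 h, against 15.8 and 13.7 TPM untreated. LSM5 had 22.3 and 25.3 TPM with auxin at 8 h, against 30.3 and 36.1 TPM untreated, and 22.8 and 24.3 TPM at 24 h, against 41.1 and 35.9 TPM untreated. LSM1, the subunit that makes the ring cytoplasmic, had 18.8 and 18.6 TPM with auxin at 8 h, against 22.2 and 25.1 TPM untreated, and 17.8 and 16.8 TPM at 24 h, against 26.2 and 22.8 TPM untreated. None of these groups overlapped. Their log2 changes were -0.78, -0.76 and -0.62 at 8 h, and -0.92, -0.95 and -0.74 at 24 h, for LSM3, LSM5 and LSM1 in that order, with SE of 0.071 to 0.087.

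LSM7 fell late. It had 61.6 and 62.0 TPM in CNOT1-AID cells after 8 h of auxin, against 56.8 and 64.2 TPM untreated, so the deposited TPM values overlap, and after TMM scaling they are 50.9 and 51.4 with auxin, against 61.6 and 61.2 untreated. The called change at 8 h (log2 -0.26, limma adjusted p = 0.015) was lost without untreated replicate 1 (adjusted p = 0.055) or auxin replicate 1 (0.060), and with no filter on low values (0.11). Auxin in parental cells gave LSM7 a log2 change of -0.20 at 8 h (unadjusted p = 0.037 in limma). The response in CNOT1-AID cells differed from this by -0.06 (limma adjusted p = 0.70). At 24 h LSM7 had 33.3 and 36.9 TPM with auxin in CNOT1-AID cells, against 57.0 and 62.3 TPM untreated, a log2 change of -1.02 (SE 0.087). The change from 8 h to 24 h was itself called for LSM4 (log2 -0.69, limma adjusted p = 3.3e-05) and LSM7 (-0.75, 0.00020), and for none of the other 6, where 36.3% of all genes were called and 18.9% lower. LSM8 was also called without untreated replicate 2 of 8 h (-0.79, adjusted p = 0.0080).

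LSM2, LSM6 and LSM8 had no called change at 8 h, and LSM2 alone of them was called at 24 h. LSM2 had 48.9 and 50.5 TPM with auxin at 8 h, against 46.7 and 42.9 TPM untreated. At 24 h it had 46.9 and 51.0 TPM with auxin, against 48.6 and 47.0 TPM untreated. Set against the parental response, its log2 change at 24 h was -0.14 and not called (limma adjusted p = 0.31). The called fall of LSM2 at 24 h (log2 -0.23, limma adjusted p = 0.022) was lost without auxin replicate 1 (adjusted p = 0.27), untreated replicate 1 (0.055) or untreated replicate 2 (0.084), or with no filter on low values (0.077). At 8 h a fall of LSM2 was called without untreated replicate 2 (log2 -0.30). LSM6 had 12.9 and 11.8 TPM with auxin at 8 h, against 11.3 and 13.7 TPM untreated, and 11.2 and 10.3 TPM at 24 h, against 12.5 and 9.84 TPM untreated. These TPM values overlap at both times. After TMM scaling they are 10.7 and 9.74 with auxin, against 12.2 and 13.1 untreated at 8 h, and 8.71 and 8.46 with auxin, against 11.7 and 9.70 untreated at 24 h. Its log2 change of -0.30 at both times was not called (limma adjusted p = 0.13 and 0.12), but a fit of only the libraries compared called it lower (-0.31 and -0.35, adjusted p = 0.042 and 0.021). LSM8, the subunit that makes the ring nuclear, had 22.9 and 21.8 TPM with auxin at 8 h, against 12.0 and 21.8 TPM untreated, and 19.3 and 18.7 TPM at 24 h, against 19.4 and 19.9 TPM untreated. The 2 untreated libraries at 8 h disagreed. The LSM8 interval ran from -0.21 to 0.53 on the log2 scale at 8 h and from -0.67 to 0.06 at 24 h. Without untreated replicate 2 of 8 h LSM8 was called higher at 8 h (log2 0.48, limma adjusted p = 0.017). Without either untreated library of 8 h it was called lower at 24 h (log2 -0.30 and -0.31, adjusted p = 0.0496 and 0.0488), as it was in a fit of only the libraries compared (-0.36, adjusted p = 0.0036).

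The size of these changes depends on the scale. Scaling to the ERCC spike-in, which was added to a fixed mass of RNA and not per cell, moved the median of all genes in CNOT1-AID cells to 0.41 at 8 h and 0.31 at 24 h (log2). LSM4 remained lower (-0.997 and -1.77), as did LSM3 (-0.34 and -0.56). At 8 h the falls of LSM1 (-0.16) and LSM5 (-0.30) were no longer called, LSM7 changed sign (0.20), and LSM2 (0.32) and LSM8 (0.61) were called higher. At 24 h LSM1, LSM5 and LSM7 were still called lower (-0.37, -0.57 and -0.64) and LSM2 changed sign (0.15, not called). LSM1, LSM2, LSM3, LSM4, LSM5 and LSM7 all lay below the shifted median at both times. Scaling divides each library by a single factor, which moves all its genes nearly alike. A gene's place relative to the median is therefore no separate check on the falls.

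**Figure D2:**
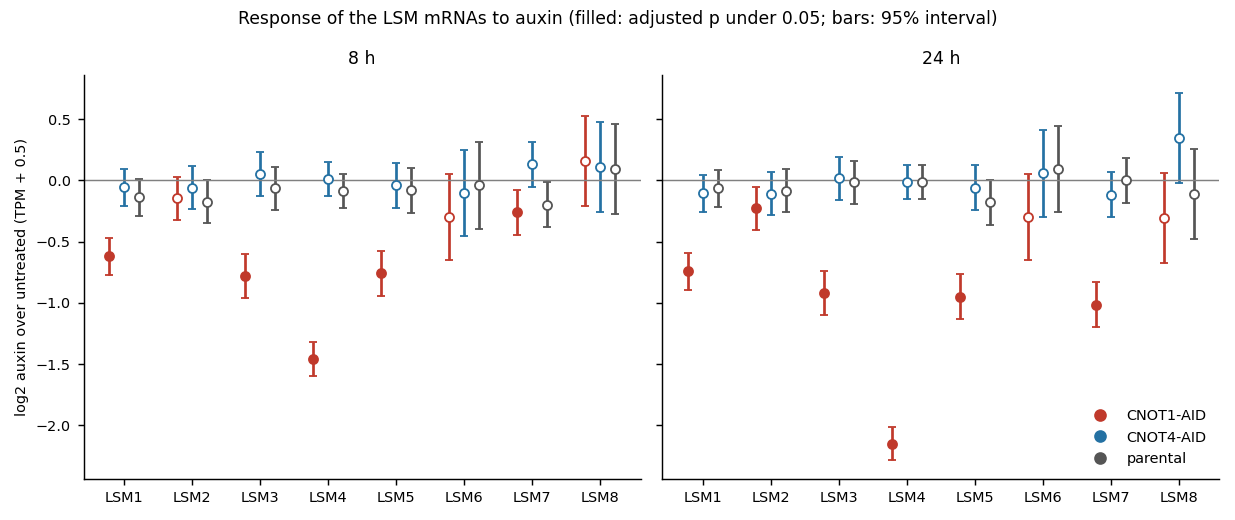
Log2 change of each LSM gene with auxin against untreated in CNOT1-AID, CNOT4-AID and parental cells at 8 h and 24 h; points are limma estimates from 2 libraries a group, filled where the adjusted p is under 0.05, and bars are 95% intervals. Filled points are all in CNOT1-AID cells, where LSM4 reaches -1.46 at 8 h and -2.15 at 24 h.

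Auxin itself, and depletion of CNOT4, left no called change in the 8 mRNAs. In CNOT4-AID cells 0 of 8 were called at 8 h and 0 at 24 h, where 0.288% and 4.51% of all genes were called, and 0 of 8 had an unadjusted p under 0.05 at either time. In parental cells 0 of 8 were called at 8 h and at 24 h, where 0.0201% and 0% of all genes were called; in limma 1 of 8 at 8 h (LSM7) and 0 at 24 h had an unadjusted p under 0.05. LSM4 in CNOT4-AID cells had 75.01 and 98.01 TPM after 8 h of auxin, against 93.4 and 95.5 TPM untreated, and 121 and 124 TPM after 24 h, against 114 and 112 TPM untreated. After scaling its change was 0.01 (95% interval -0.12 to 0.15) at 8 h and -0.01 (-0.15 to 0.13) at 24 h. The widest intervals were for LSM6 and LSM8: at 24 h in CNOT4-AID cells LSM8 had 17.3 and 16.8 TPM with auxin, against 11.2 and 13.2 TPM untreated, which do not overlap, with a log2 change of 0.35 (-0.02 to 0.71).

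The response to auxin was also compared between lines. The responses in CNOT1-AID and parental cells differed for LSM1, LSM3, LSM4 and LSM5 at 8 h (4 of 8 lower, where 23.2% of all genes were called lower and 50.3% in either direction) and for these and LSM7 at 24 h (5 of 8, where 29.6% were called lower and 61.9% in either direction). The difference for LSM4 was -1.37 at 8 h and -2.14 at 24 h on the log2 scale (limma adjusted p = 4.0e-09 and 1.1e-11). With ERCC scaling the 8 h calls were 1 lower (LSM4, -0.86) and 2 higher (LSM2 at 0.54 and LSM7 at 0.45, limma adjusted p = 0.0015 and 0.029), while LSM3 (-0.22) and LSM5 (-0.17) were lost and LSM1 changed sign (0.03). LSM1 was also lost with no scaling (-0.29, adjusted p = 0.10). At 24 h ERCC scaling left 3 of 8, without LSM1 (-0.28) and LSM5 (-0.37). Between CNOT1-AID and CNOT4-AID at 24 h, 6 of 8 responses were lower (LSM1, LSM3, LSM4, LSM5, LSM7 and LSM8), where 62.2% of all genes were called and 30.1% lower. That of LSM8 (-0.65, limma adjusted p = 0.030) was lost without any of 6 of the 8 libraries it rests on, which are both auxin libraries of both lines, untreated CNOT1-AID replicate 2 and untreated CNOT4-AID replicate 1 (-0.54 to -0.66, adjusted p = 0.058 to 0.11), and with no scaling (0.15), ERCC scaling (0.21) or no filter on low values (0.083). Between CNOT4-AID and parental 0 of 8 differed at either time, where 0.0134% and 0.067% of all genes were called, and 1 of 8 at 8 h and 0 at 24 h had an unadjusted p under 0.05. The comparisons share the CNOT1-AID or the parental libraries. Before auxin the lines had no called difference in the 8 mRNAs: 0 of 8 in untreated CNOT1-AID against parental, where 20.7% of all genes were called, and 0 of 8 in untreated CNOT4-AID against parental, where 20.2% were, although 2 of 8 had an unadjusted p under 0.05 in each. LSM8 was lower in untreated CNOT4-AID cells by a log2 value of -0.30 (limma adjusted p = 0.093), which was called without either untreated CNOT1-AID library of 8 h (0.029 each) or untreated CNOT4-AID replicate 1 of 8 h (-0.40, 0.044). LSM4 in untreated CNOT4-AID cells was called higher without either of the same CNOT1-AID libraries (0.11, limma adjusted p = 0.028 each). In untreated CNOT1-AID cells LSM5 was called lower when any of 8 single libraries was left out (-0.23 to -0.18, adjusted p = 0.026 to 0.049), LSM2 was called lower without CNOT1-AID replicate 1 of 8 h (-0.16, 0.045) and LSM4 higher without CNOT1-AID replicate 2 of 8 h (0.17, 0.0043).

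The make-up of the LSM mRNA pool shifted with the fall of LSM4. LSM4 was 20.4% and 21.3% of the summed LSM1 to LSM8 TPM in CNOT1-AID cells after 8 h of auxin, against 38.5% and 34.7% untreated, and 18.0% and 16.1% after 24 h, against 36.9% and 36.8% untreated. In the 16 libraries of the other 2 lines the share was 33.4% to 37.3%. The ratio of LSM1 to LSM8 TPM, the subunits that set the ring's place, was 0.82 and 0.85 in CNOT1-AID cells at 8 h of auxin, against 1.85 and 1.15 untreated, and 0.92 and 0.90 at 24 h, against 1.35 and 1.14 untreated. The CNOT1-AID auxin libraries were the lowest 4 of all 24 in this ratio, with untreated parental replicate 1 at 24 h next at 0.997. A lower ratio with auxin was not particular to these cells. In CNOT4-AID cells at 24 h it was 1.268 and 1.185 with auxin, against 1.705 and 1.68 untreated. In parental cells at 8 h it was 1.437 and 1.252, against 1.629 and 1.53. In CNOT4-AID cells at 8 h and parental cells at 24 h the treatments overlapped. Both quantities are ratios within a library, so scaling between libraries does not enter them; neither was tested, and with 2 libraries a group an exact permutation test cannot go below p = 0.333.

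**Figure D3:**
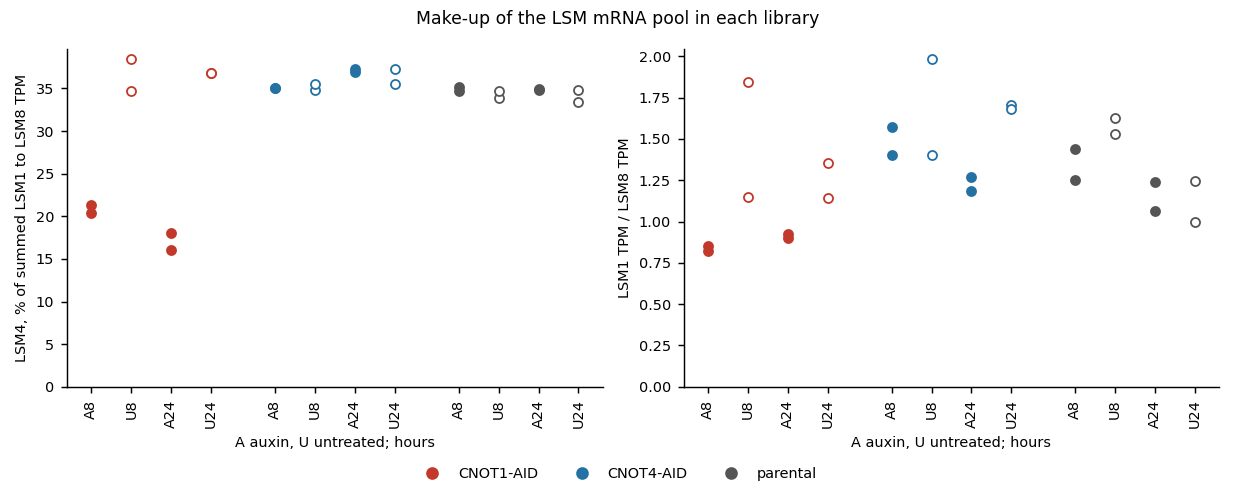
LSM4 as a percent of the summed TPM of LSM1 to LSM8 (left) and the ratio of LSM1 to LSM8 TPM (right) in each library, filled for auxin and open for untreated, with axes from 0. CNOT1-AID auxin libraries hold 16.1% to 21.3% LSM4, against 33.4% or more in every other library.

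Across the 24 libraries LSM4 spanned the widest range of group means (2.19 on the log2 scale) and LSM2 the narrowest (0.43). LSM1, LSM3, LSM4 and LSM5 varied together, with a Pearson r of 0.88 to 0.97 between each pair, while LSM8 had r of -0.23 to -0.07 with the other 7. The points share libraries and the 4 CNOT1-AID auxin libraries stand apart in these genes, so the correlations are a description with no p. Among 8849 protein-coding genes with a mean of at least 5 TPM, those nearest to the mean standardised profile of the 8 were HMGN1 (r = 0.981), DUT (0.980), H2AFV (0.979), DSTN (0.978) and FUCA2 (0.976). Those nearest to LSM4 were H2AFV (0.995), FAM120A, PPP1R14B, NUP210 and TPGS2 (0.993 to 0.995).

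Loss of each mRNA under triptolide was fitted as a slope in log2 per hour, on counts scaled to 56 ERCC RNAs. In parental cells the 8 split into a quickly lost LSM8, a slower LSM2 and 6 mRNAs without a called loss in 12 h: 2 of 8 slopes were called lower, where 49.0% of the 16806 genes tested were called and 48.3% lower. The loss of the other 6 did not pass the test, and all but 1 of their intervals allow no half-life under 13.4 h (LSM6 allows 9.78 h), while the median gene had a slope of -0.073 per hour. The median slope of the 8 was -0.012. Without 12 h LSM2 was not called (-0.037) and LSM3 was called higher (0.114), and by TMM LSM1, LSM3, LSM4, LSM5 and LSM7 were called higher (0.042 to 0.110).

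LSM8 fell steeply in CNOT4-AID and parental cells, and its slope in CNOT1-AID cells was not called. An ERCC-scaled CPM is a count divided by the spike-in total of its library, on a scale common to all libraries. In CNOT1-AID cells this value for LSM8 was 29.7 and 36.0 at 0 h, and 21.9 and 28.9 at 3 h. It was 14.9 and 21.6 at 6 h, and 22.5 and 18.5 at 12 h. In CNOT4-AID cells it was 36.3 and 24.9 at 0 h, 10.2 and 13.8 at 3 h, 5.76 and 5.91 at 6 h, and 3.08 and 1.31 at 12 h. In parental cells it was 24.0 and 24.8 at 0 h, 13.6 and 12.5 at 3 h, 7.96 and 12.4 at 6 h, and 3.82 and 3.35 at 12 h. At 12 h the mean was 62.3% of that at 0 h in CNOT1-AID cells, 7.17% in CNOT4-AID cells and 14.7% in parental cells. At each time, 0 h included, both CNOT1-AID libraries stood above both parental ones. On the ERCC scale the median of all genes at 0 h was 0.36 (log2) higher in CNOT1-AID than in parental cells. The fitted half-lives were 18.0 h (95% interval 9.44 to 183) in CNOT1-AID cells, 3.18 h (2.70 to 3.87) in CNOT4-AID cells and 4.47 h (3.57 to 5.98) in parental cells; the CNOT1-AID slope (-0.056) was not called (edgeR adjusted p = 0.17). Without 12 h it was called (-0.142, adjusted p = 0.037). Counts were 358 to 513 in CNOT1-AID, 75 to 577 in CNOT4-AID and 97 to 583 in parental libraries.

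LSM2 had the same order of lines in its fitted slopes. Its ERCC-scaled CPM was 42.1 and 42.0 at 0 h and 47.5 and 38.8 at 12 h in CNOT1-AID cells, 36.4 and 38.4 at 0 h and 9.82 and 5.17 at 12 h in CNOT4-AID cells, and 32.6 and 32.4 at 0 h and 15.7 and 14.5 at 12 h in parental cells. Both libraries fell below their 0 h pair in CNOT4-AID and parental cells, and in CNOT1-AID cells they straddled it. The half-life was 5.07 h (95% interval 4.06 to 6.77) in CNOT4-AID and 10.1 h (6.82 to 19.8) in parental cells, while in CNOT1-AID cells the slope was -0.00096 per hour and the interval allowed no half-life under 21.7 h. For neither LSM8 nor LSM2 was the slope difference between CNOT4-AID and parental cells called. The differences were -0.091 and -0.099 per hour (edgeR adjusted p = 0.089 and 0.073), beside a median of -0.075 for all genes.

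**Figure D4:**
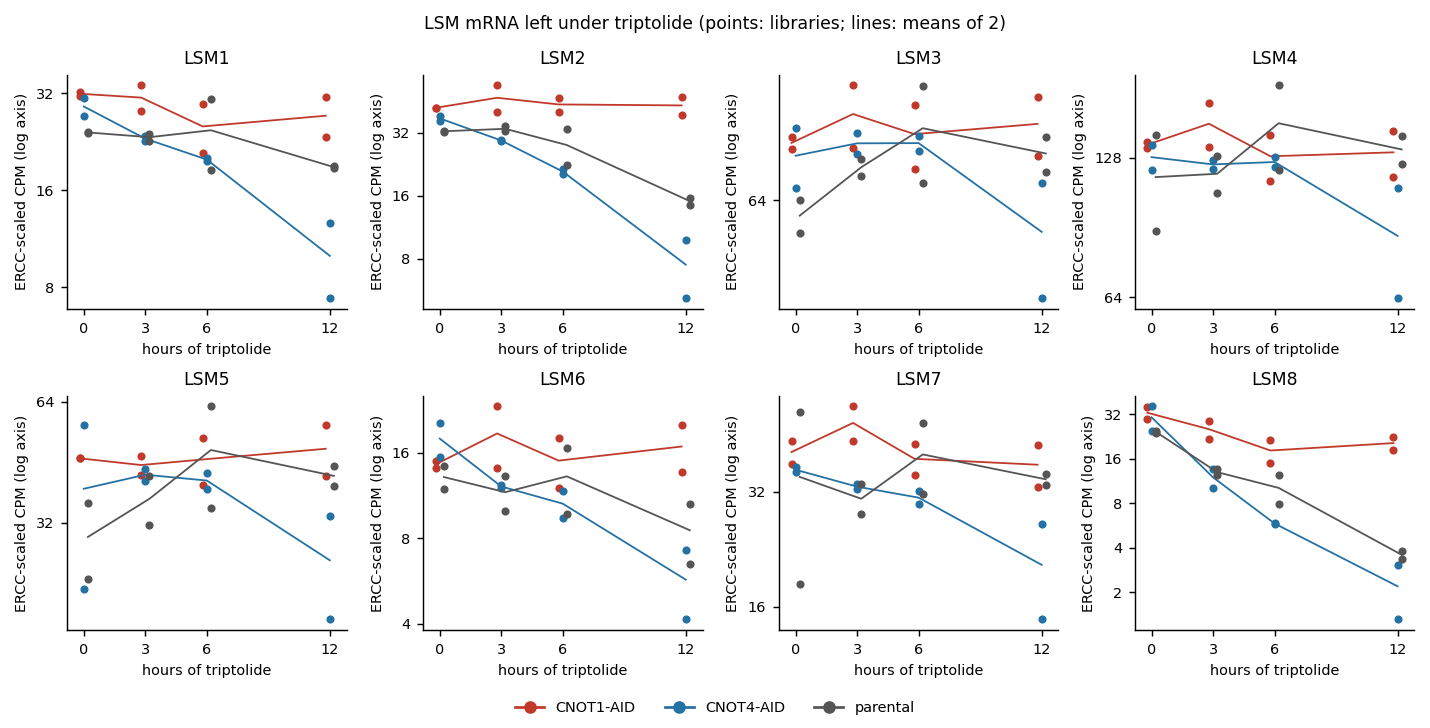
ERCC-scaled CPM of each LSM gene on a log axis after 0, 3, 6 and 12 h of triptolide in CNOT1-AID, CNOT4-AID and parental cells; points are single libraries, shifted slightly sideways by line, and lines join means of 2 libraries. LSM8 ends at 18.5 to 22.5 in CNOT1-AID cells, 1.31 to 3.08 in CNOT4-AID cells and 3.35 to 3.82 in parental cells, while the 12 h means of LSM3, LSM4, LSM5 and LSM7 are 92.65% to 142% of those at 0 h in CNOT1-AID and parental cells.

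The slopes of LSM8 and LSM2 were higher in CNOT1-AID than in parental cells, and those of the other 6 did not pass the test. LSM8 differed by 0.168 per hour (SE 0.037, edgeR quasi-likelihood adjusted p = 0.00040) and LSM2 by 0.098 (SE 0.032, adjusted p = 0.024), so 2 of 8 were called higher, where 19.8% of all genes were called and 18.8% higher. Of LSM1, LSM3, LSM4, LSM5, LSM6 and LSM7 the differences lay between -0.033 and 0.055 per hour. For LSM4, whose level fell most at steady state, the difference was -0.030 per hour with a 95% interval of -0.094 to 0.034. Both called differences rest on the late times: without 12 h LSM8 had 0.072 and LSM2 0.046, neither called, and LSM2 was also lost without 0 h (adjusted p = 0.079) or without 1 of 5 libraries, which were parental 12 h replicate 1 (0.10) or 2 (0.15), CNOT1-AID 0 h replicate 1 (0.058) or 2 (0.058) and CNOT1-AID 12 h replicate 1 (0.12). Scaled by TMM, which sets the median gene near no loss, LSM8 (0.130) and LSM2 (0.058) kept their calls, and LSM1, LSM3, LSM4 and LSM7 were called lower (-0.033, -0.069, -0.071 and -0.067).

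In CNOT4-AID cells 6 of 8 slopes were called lower (LSM1, LSM2, LSM3, LSM6, LSM7 and LSM8), where 85.8% of all genes were called and 85.6% lower, and the slopes of LSM4 (-0.047) and LSM5 (-0.054) had adjusted p of 0.055 and 0.070 in edgeR. LSM4 was called by DESeq2 (adjusted p = 0.036) and when any of 5 single libraries was left out (edgeR adjusted p = 0.020 to 0.0496), and LSM5 when either of 2 was (0.0034 and 0.049) and without 0 h (-0.084, adjusted p = 0.021). LSM1 had a half-life of 7.83 h (95% interval 5.72 to 12.4), with its call lost without 12 h (edgeR adjusted p = 0.065), and LSM6 of 7.51 h (5.35 to 12.6). LSM3 was near the threshold (edgeR adjusted p = 0.049) and lost its call when any of 15 single libraries was left out, with a slope of -0.015 without CNOT4-AID 12 h replicate 2; LSM7 lost it without that same library (-0.039, adjusted p = 0.23). Without 12 h LSM7 (-0.040) lost its call and LSM3 changed sign (0.016). In CNOT1-AID cells 0 of 8 slopes were called, where 11% of all genes were called; 1 of 8, LSM8, had an unadjusted p under 0.05. Calls for CNOT4-AID rest on the spike-in: by TMM the slopes of LSM1, LSM3, LSM4, LSM5, LSM6 and LSM7 turned positive, and the ERCC shares of the 12 h libraries are given above.

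Between CNOT4-AID and parental cells the slope differences of the 8 ran from -0.099 to -0.067 per hour, beside a median of -0.075 for all genes. None was called, where 0.845% of all genes were, although 8 of 8 had an unadjusted p under 0.05 in edgeR and DESeq2 called 3. Without CNOT4-AID 12 h replicate 1 all 8 were called lower (-0.155 to -0.092), without parental 6 h replicate 2 LSM1 and LSM2 were (-0.096 and -0.096), and without parental 0 h replicate 1 LSM7 was (-0.117). Between CNOT1-AID and CNOT4-AID the slopes of LSM1, LSM2, LSM6 and LSM8 were higher in CNOT1-AID cells (4 of 8, where 51.7% of all genes were called and 51.5% higher). LSM8 differed by 0.259 per hour (SE 0.036, edgeR adjusted p = 4.9e-08) and LSM2 by 0.196 (SE 0.033, adjusted p = 1.9e-06). LSM1 differed by 0.106 and LSM6 by 0.14; without both CNOT4-AID 12 h libraries neither was called (0.070 and 0.134), LSM1 was also lost without CNOT1-AID 12 h replicate 1 (0.085, adjusted p = 0.052), and by TMM LSM1 changed sign (-0.006) and LSM6 was not called (0.029). Without 12 h LSM8 alone was called, with LSM2 at 0.149 (adjusted p = 0.068), and without 0 h LSM6 was lost (0.116, adjusted p = 0.0504). LSM5 was called higher without CNOT4-AID 0 h replicate 2 (0.095, edgeR adjusted p = 0.024), and by TMM LSM3 and LSM4 were called lower (-0.050 and -0.074). These comparisons share the slopes of the same lines.

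**Figure D5:**
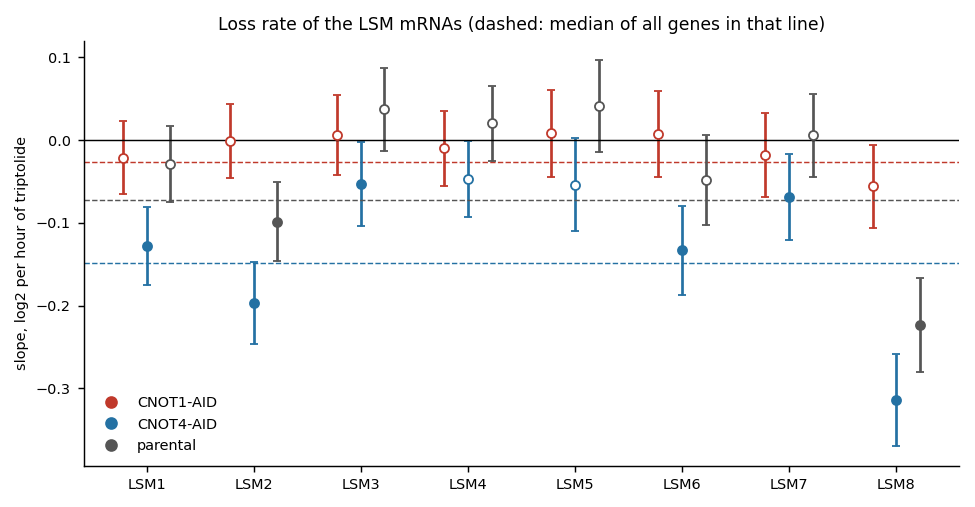
Slope of each LSM gene under triptolide in log2 per hour for CNOT1-AID, CNOT4-AID and parental cells; points are edgeR estimates over 8 libraries a line, filled where the adjusted p is under 0.05, bars are 95% intervals and dashed lines are the median of all genes in each line. LSM8 lies at -0.06 in CNOT1-AID, -0.31 in CNOT4-AID and -0.22 in parental cells.

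At 0 h of triptolide, after 2 h of auxin, none of the 8 differed from parental cells in CNOT1-AID (0 of 8, where 1.36% of all genes were called) or CNOT4-AID cells (0 of 8, where 1.03% were), and 0 of 8 had an unadjusted p under 0.05 in either comparison in edgeR. The differences ran from -0.25 to 0.25 (log2) in CNOT1-AID and from -0.23 to 0.11 in CNOT4-AID cells. Intervals were wide with 2 libraries a line: that of LSM5 in CNOT1-AID against parental cells ran from -0.78 to 1.27, and that of LSM4 from -0.57 to 0.33. LSM7 was uneven in the parental pair (846 and 432 counts), as was LSM5 (381 and 841 counts). Without parental replicate 1 LSM7 was called higher in CNOT1-AID cells (log2 0.66, edgeR adjusted p = 0.028), and without parental replicate 2 it was called lower (-0.61, adjusted p = 0.022). In CNOT4-AID cells, LSM7 (-0.73, edgeR adjusted p = 0.014) and LSM4 (-0.40, adjusted p = 0.044) were called lower without parental replicate 2.

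The genes that work with the rings moved in both directions after CNOT1 depletion. Of all genes tested, 33.1% were called higher and 29.8% lower at 8 h, and 36.7% higher and 34.8% lower at 24 h. Of 14 genes of decapping and 5′ to 3′ decay, 6 rose and 2 fell at 8 h, and 7 rose and 4 fell at 24 h (list median 0.13 and 0.10). PNRC1, a decapping coactivator, rose by 1.86 and 3.48 (log2), EIF4ENIF1, the eIF4E transporter that binds LSM14A, by 1.07 and 1.02, DCP1A, an activator of the decapping enzyme, by 0.88 at 8 h, and DCP1B, its relative, by 1.03 at 24 h. Of 19 partners of U6 and the tri-snRNP, 5 rose and 7 fell at 8 h, and 8 rose and 7 fell at 24 h (median -0.01 and 0.05). MEPCE, the capping enzyme of 7SK RNA, rose by 1.42 and 1.49, and TUT1, which adds uridines to U6 snRNA, by 1.18 and 2.02; TXNL4A, a U5 snRNP protein, fell (-1.17 and -1.76). With ERCC scaling the decay list had 12 higher and 0 lower at 8 h and 9 and 2 at 24 h, and the U6 list 15 and 1, and 11 and 3.

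The Sm ring, built like the LSM ring but for the other spliceosomal snRNAs, also had genes called lower after CNOT1 depletion. Most of these calls were lost against the parental response or with ERCC scaling. Of its 7 genes 5 fell and none rose at 8 h and at 24 h (median -0.36 and -0.27), where 29.8% and 34.8% of all genes were called lower, led by SNRPD2 (-0.83 and -0.62), SNRPG (-0.60 and -0.56) and SNRPE (-0.44 and -0.43). Set against the parental response 3 and 2 of the 7 were lower, where 23.2% and 29.6% of all genes were. With ERCC scaling of the CNOT1-AID change 1 was higher and 1 lower at 8 h, and 2 and 1 at 24 h. Among 6 other LSM-domain genes, of which LSM14A and LSM14B are also in the decay list, LSM11, a U7 snRNP subunit, rose (0.54 and 0.61), LSM12 fell (-0.63 and -0.68), LSM10, also of U7 snRNP, fell at 8 h (-0.54) and NAA38, of the NatC acetyltransferase, at 24 h (-0.26). Of the 6, 1 rose and 3 fell at 8 h, and 2 rose and 3 fell at 24 h (median -0.10 and -0.13). ERCC scaling gave 4 higher and 0 lower at 8 h, and 3 and 1 at 24 h. The SMN machinery, which loads Sm rings on snRNAs, went the other way: of 13 genes 9 rose and 2 fell at 8 h, and 10 rose and 2 fell at 24 h (median 0.58 and 1.36), where 33.1% and 36.7% of all genes were called higher, with DDX20 at 1.59 and 2.12, GEMIN2 at 1.02 and 1.48, GEMIN5 at 1.05 at 8 h and GEMIN7 at 1.48 at 24 h. With ERCC scaling the counts were 11 higher and 0 lower at 8 h and 10 and 1 at 24 h. All genes tested had medians of 0.00 and -0.01, and SMN1 and SMN2 are near-identical copies whose reads cannot be told apart.

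In the slopes of CNOT1-AID against parental cells, 4 of 14 decay genes, 4 of 19 U6 partners, 0 of 7 Sm genes, 1 of 6 other LSM-domain genes and 5 of 13 SMN genes were called higher and none of them lower, where 18.8% of all genes were called higher, with list medians of 0.053, 0.012, -0.006, 0.056 and 0.076 per hour beside 0.028 for all genes. PNRC1 (0.294), EIF4ENIF1 (0.274) and DCP1B (0.265) led the decay list, TUT1 (0.286), MEPCE (0.257) and SART3 (0.179), a recycling factor of U6, led the U6 list, LSM11 had 0.152, and GEMIN7 (0.378), DDX20 (0.304) and GEMIN4 (0.255) led the SMN list. In CNOT4-AID cells with auxin, none of the 14 decay genes was called at 8 h or 24 h, and 0 and 2 of the U6 partners were called, both higher. In the same cells 1 Sm gene was called lower at 24 h. Of all genes 0.288% and 4.51% were called at 8 h and 24 h. The 5 U6 snRNA loci looked up were listed at 0 in all 24 steady-state libraries. RNU6ATAC, the U6 counterpart of the minor spliceosome, had 57.4 to 316 TPM. In steady-state CNOT1-AID cells its change was not called at either time. Under triptolide its slope was lower in CNOT1-AID than in parental cells (-0.352 per hour, edgeR adjusted p = 0.017). Whether triptolide stops the synthesis of this small RNA was not tested, so its slope is not given as a decay rate.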

How the data were processed

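Steady-state and triptolide RNA-seq of DLD-1 lines was analysed from 2 deposited tables. Per the labels, ERCC RNA was added to a fixed RNA mass before a stranded total RNA library. Tools listed in the submitters' processing notes are STAR 2.5.1b, featureCounts, RSEM, SAMtools and DESeq2, and the build is hg38 (GRCh38); their roles are not given in the sources used here. Values deposited for steady state are TPM, so their depth is unknown and no counting interval is given; the deposited triptolide values are raw counts. All 58721 identifiers matched GENCODE 29, and no column was left unmapped.

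TPM were TMM-scaled and tested as log2(TPM + 0.5) in limma 3.58.1 (trend, robust) over 12 groups, for 14921 genes with at least 1 TPM in 2 libraries, with 12 residual degrees of freedom. Counts were tested in edgeR 4.0.16 (quasi-likelihood, robust, R 4.3.3): a slope per line over 0, 3, 6 and 12 h with ERCC scaling by the 56 of 92 spike-ins with a mean count of at least 10, on 16806 genes, and the lines at 0 h with TMM on 15674 genes. P-values were Benjamini-Hochberg adjusted over all genes tested, with 0.05 as the threshold; intervals are 95%. Half-lives are 1 over the slope in log2 per hour, changed in sign. The scripts were tested on simulated data.

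All 8 members are given in every comparison. Of each list up to 3 called members with the largest change are named, and the 5 nearest patterns by Pearson r. The members and lists were chosen with earlier results of these data known. Sequences are from RefSeq (GRCh38.p14 promoters) and GENCODE 29 (3′ UTRs of 1 principal transcript a gene). Alternatives were other scalings, pseudocounts of 0.1 and 1, no filter, fewer libraries in the fit, DESeq2 1.42.0, other time ranges, a replicate block and leaving out each library. Leaving out both libraries of a doubted pair, and median-of-ratios scaling of the slopes, were added after seeing the data.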

Additional observations from a re-analysis of the deposited data

Results flagged for a closer look

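The results below differ between lines or times by a test of the difference itself, with p-values from limma or edgeR adjusted over all genes tested. In the response to auxin, CNOT1-AID minus parental cells differed at 8 h for LSM1 (log2 -0.48), LSM3 (-0.72), LSM4 (-1.37) and LSM5 (-0.68), and at 24 h for LSM1 (-0.68), LSM3 (-0.90), LSM4 (-2.14), LSM5 (-0.77) and LSM7 (-1.02). CNOT1-AID minus CNOT4-AID cells differed at 24 h for LSM1 (-0.64), LSM3 (-0.94), LSM4 (-2.14), LSM5 (-0.89), LSM7 (-0.90) and LSM8 (-0.65). Within CNOT1-AID cells, 24 h minus 8 h differed for LSM4 (-0.69) and LSM7 (-0.75). In slopes under triptolide (log2 per hour), CNOT1-AID minus parental cells differed for LSM2 (0.098) and LSM8 (0.168), and CNOT1-AID minus CNOT4-AID cells for LSM1 (0.106), LSM2 (0.196), LSM6 (0.14) and LSM8 (0.259). These comparisons share libraries. Groups of 2 libraries are too small for a check of single libraries that stand apart.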

How the results depend on the processing

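Depth of the TPM table is unknown, and 2 libraries a group limit every interval; causes of the changes below were not tested. LSM4 and LSM3 were called lower in CNOT1-AID cells at both times under TMM, no scaling and ERCC scaling. Signs changed as follows. In CNOT1-AID cells at 8 h LSM2 had 0.32 with ERCC scaling, and LSM7 0.033 with no scaling and 0.20 with ERCC; at 24 h LSM2 had 0.032 and 0.15. In CNOT1-AID minus parental responses at 8 h, ERCC scaling gave LSM1 0.027 and LSM7 0.45. In untreated CNOT4-AID against parental cells, no scaling gave LSM1 -0.23, LSM2 -0.22, LSM4 -0.15 and LSM7 -0.19. For slopes, values by TMM and then by DESeq2 with median-of-ratios scaling were, in CNOT4-AID cells, LSM1 0.015 and 0.016, LSM3 0.087 and 0.089, LSM4 0.095 and 0.096, LSM5 0.088 and 0.089, LSM6 0.0096 and 0.011 and LSM7 0.073 and 0.074; in parental cells, LSM1 0.042 and 0.040; and in CNOT1-AID minus CNOT4-AID, LSM1 -0.0060 and -0.0065, LSM3 -0.050 and -0.050 and LSM4 -0.074 and -0.074. TMM gave LSM1 -0.033 in CNOT1-AID minus parental; median-of-ratios gave LSM7 -0.060 in CNOT1-AID minus CNOT4-AID and LSM2 0.031 in CNOT1-AID cells. LSM3 in CNOT4-AID cells had 0.016 without 12 h, and 0.016 without both CNOT4-AID 12 h libraries. At 0 h, CNOT1-AID against parental, LSM7 ran from -0.61 to 0.66 when 1 library was left out. Counts of all genes called moved by over 1.5 times as follows. CNOT4-AID at 8 h had 43, against 11 with no scaling, 6 with ERCC and 4 fitting only the libraries compared, and at 24 h 673, against 21, 240 with no filter and 19 with only those libraries. Parental cells at 8 h had 3, against 1 with ERCC, 18 with no filter and 13 with only those libraries, and at 24 h 0, against 2 with either pseudocount, 14 with no filter and 8 with only those libraries. CNOT4-AID minus parental had 2 at 8 h, against 1 with a pseudocount of 0.1 and 22 with no filter, and 10 at 24 h, against 2 with no scaling, 1 with ERCC, 5 with the replicate block and 3 with only those libraries. The 24 h minus 8 h response had 5422, against 3286 with ERCC. Untreated CNOT1-AID against parental had 3095, against 1719 with no scaling, 1312 with ERCC and 1529 with only those libraries, and untreated CNOT4-AID 3017, against 8682 with no scaling. CNOT1-AID slopes had 1851, against 951 without 0 h and 2789 by median-of-ratios; CNOT4-AID slopes 14413, against 8264 without 12 h and 8146 without both CNOT4-AID 12 h libraries; parental slopes 8234, against 3928 without 12 h. CNOT1-AID minus parental slopes had 3325, against 6091 by TMM, 6123 by median-of-ratios, 927 without 12 h and 2190 without 0 h. CNOT4-AID minus parental slopes had 142, against 16 by TMM, 3012 by DESeq2, 594 with no filter, 0 without 12 h, 66 without 0 h, 28 with the replicate block, 433 without both parental 0 h libraries, 917 without both CNOT4-AID 12 h libraries and 70 by median-of-ratios. CNOT1-AID minus CNOT4-AID slopes had 8697, against 2726 without 12 h, 5257 without 0 h and 4805 without both CNOT4-AID 12 h libraries. At 0 h CNOT1-AID had 213, against 703 with ERCC, 494 by DESeq2, 856 with no filter and 106 with the replicate block, and CNOT4-AID 161, against 412, 401, 792 and 85. Counts of the 8 moved in CNOT1-AID minus parental at 24 h (3 with ERCC), untreated CNOT1-AID (1 without both CNOT4-AID auxin 8 h libraries), untreated CNOT4-AID (6 with no scaling, 1 with ERCC), CNOT1-AID slopes (1 by TMM, 1 without 12 h, 3 by median-of-ratios), CNOT4-AID slopes (3 without 12 h or without both CNOT4-AID 12 h libraries), parental slopes (7 by TMM or median-of-ratios), CNOT1-AID minus parental slopes (6 by TMM, 5 by median-of-ratios, 0 without 12 h, 1 without 0 h), CNOT4-AID minus parental slopes (3 by DESeq2, 1 without both CNOT4-AID 12 h libraries) and CNOT1-AID minus CNOT4-AID slopes (1 without 12 h, 2 without both CNOT4-AID 12 h libraries). Leaving out 1 library at a time, counts of all genes ran from 48 to 2750 (0 h, CNOT1-AID), 0 to 2553 (0 h, CNOT4-AID), 6 to 86 and 21 to 1386 (CNOT4-AID at 8 h and 24 h), 0 to 4 and 0 to 5 (parental), 1 to 8 and 0 to 304 (CNOT4-AID minus parental), 1894 to 3566 (untreated CNOT4-AID), 1073 to 2175 (CNOT1-AID slopes) and 0 to 9690 (CNOT4-AID minus parental slopes). Counts of the 8 ran from 0 to 1 (0 h, CNOT1-AID), 0 to 2 (0 h, CNOT4-AID), 1 to 2 and 0 to 8 (slopes of CNOT1-AID and CNOT4-AID minus parental), and 0 to 1 and 0 to 2 (untreated CNOT1-AID and CNOT4-AID). Same-numbered libraries deviated together with r of -0.21 to 0.10, so the numbers do not pair them; with the replicate block the count of the 8 was 5 and 6 in CNOT1-AID cells at 8 h and 24 h.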
